A study of Mus musculus with 6 samples.

Results

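The genes described here are 44 genes of the lysosome, of autophagy and of the TFEB family of transcription factors, chosen by symbol and taken from 53379 gene identifiers counted in each of 6 RNA-seq libraries. All 44 were found under their symbols, and all 44 passed the filter on low counts in every fit. The libraries came from Min6, a mouse insulinoma cell line that stands in for pancreatic beta cells. JunD gRNA libraries (n = 3) came from cells transduced with lentiCRISPR v2, a lentiviral vector for CRISPR editing, carrying a gRNA against the AP-1 transcription factor gene Jund. Rosa26 gRNA libraries (n = 3) came from cells given the same vector with a gRNA against the Rosa26 locus, the negative control. All 6 libraries share the cell line at passage 28, the vector, a harvest 8 days after transduction and a preceding 30 h in glucolipotoxic conditions (high glucose with fatty acid), so none of the groups is an unstressed one. The labels do not give the gRNA sequence or target position, the share of edited cells or whether each replicate had its own transduction, and p-values then describe only how these libraries vary, which may be technical.

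Lysosomes are acidic compartments in which soluble hydrolases break down proteins, glycans and lipids delivered by endocytosis and autophagy. The V-ATPase pumps the protons that keep them acidic, and glycosylated membrane proteins line and shield the membrane. In autophagy, an initiation complex and a lipid kinase complex start a membrane that is decorated with lipidated Atg8-family proteins, takes up cargo through receptors and fuses with lysosomes. TFEB, TFE3 and MITF bind CACGTG-type sites in promoters of many of these genes. In beta cells the lysosome also disposes of surplus insulin granules.

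Jund itself (chr8:70698949-70700616, plus strand, ENSMUSG00000071076.6) had 22.7, 25.1 and 27.2 TMM-scaled CPM in the JunD gRNA libraries, against 38.5, 34.5 and 30.6 in the Rosa26 gRNA libraries. TMM-scaled CPM are a gene's counts divided by its library's total after edgeR's TMM scaling, in the usual unit of CPM. All 3 JunD gRNA values lay below all 3 Rosa26 gRNA values, with a log2 fold change of -0.47 ± 0.11 (SE, edgeR quasi-likelihood test, Benjamini-Hochberg adjusted p = 0.417) over 6 libraries. A gene count does not report editing, since an edited transcript can still be counted. Of the exon bases of Jund, 877 (52.6%) overlap exons of the antisense gene Gm11175. Without a stated strand setting, reads there cannot be told apart. Library totals ran between 41071566 and 50024931 counts. Rosa26 gRNA replicate 1 stood apart from the other 5 libraries: its score on the first principal component (45.8% of the variance) was 62.1, against -22.5 to -6.09. Structural RNAs (Rn7sk, Rpph1, mt-Rnr1 and mt-Rnr2) took 0.446% of its counts, against 0.102% to 0.13% in the others, and the beta-cell hormone gene Ins2 took 2.19%, against 4.59% to 5.36%. The part of these differences in any result was not tested. Counts of calls and the main genes are therefore given with all 6 libraries and again without Rosa26 gRNA replicate 1. Without it the Jund difference was -0.38 ± 0.08 (SE, edgeR adjusted p = 0.00773). Of 7 macrophage markers, Adgre1 was at 0 in every library, Csf1r, Ptprc, Aif1 and Lyz2 did not exceed 0.428 TMM-scaled CPM, and the summed list stood at 47.9 to 53.8 in JunD gRNA libraries and 32.5 to 45.7 in Rosa26 gRNA libraries, most of it C1qa. Only 2 of the 7 markers passed the filter on low counts, and they went opposite ways. Their log2 fold changes were 0.34 and -0.44 with 6 libraries, and 0.19 and -0.41 without Rosa26 gRNA replicate 1. Neither passed an adjusted p of 0.05 in edgeR in either fit.

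With all 6 libraries, none of the 44 genes passed an adjusted p of 0.05. The background was the same: 0 of 17767 genes were called (0%) by edgeR. At an unadjusted p under 0.05 stood 3 of the 44 genes (Tfeb higher, Lamp2 and Npc1 lower in JunD gRNA libraries), beside 11.9% of all genes tested. On the same 6 libraries the other tools and settings also called 0 of the 44 genes, beside 0.377% of all genes by DESeq2, 0% by limma-voom, 1.65% by limma-voom with sample weights, 0.292% without a count filter and 0.141% with a GC and length correction. The 44 log2 fold changes lay between -0.25 and 0.45 with a median of 0.03, beside a median of -0.01 over all genes, and 23 were positive and 21 negative, beside 48.9% positive among all genes. The groups did not overlap for 12 of the 44 genes (27.3%, 7 higher and 5 lower in JunD gRNA libraries), against 24.8% of all genes tested (12.9% higher and 11.9% lower). The 95% interval of the log2 fold change lay inside ±0.5 for 39 genes and inside ±0.25 for 12, so for the other genes a difference of 0.25 could still lie within it.

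Without Rosa26 gRNA replicate 1, 4 of the 44 genes fell in JunD gRNA libraries and none rose: the lysosomal hydrolase genes Ctsb, Ctsl and Gla and the membrane gene Lamp2. That is 9.09% of the 44 genes, beside 1.4% of all 18296 genes called lower, 1.45% called higher and 2.86% called in all in the same fit. These shares are not matched for count level, and all 44 genes had 138 counts or more in every library. Small falls are harder to call at low counts, and the part of count level in the shares was not tested. At an unadjusted p under 0.05 stood 12 of the 44 genes (2 higher and 10 lower), beside 15.9% of all genes. The falls were small, with log2 fold changes between -0.20 and -0.15. Other groups of genes also differed in this fit: of 8 beta-cell markers, Ins2, Pdx1, Nkx6-1, Mafa and Slc2a2 were called higher and Iapp lower, with log2 fold changes between -0.11 and 0.47 over the 8. Their summed level was 89200, 88300 and 95800 TMM-scaled CPM in JunD gRNA libraries, against 49300, 85000 and 89800 in Rosa26 gRNA libraries. Of 3 markers of other endocrine cells, Ppy was called lower (-0.70). All 4 structural RNAs were negative (median -0.38), with mt-Rnr1 and mt-Rnr2 called lower, and their sum was 1160, 1060 and 1030 TMM-scaled CPM in JunD gRNA libraries, against 4370, 1170 and 1310 in Rosa26 gRNA libraries. The part of these differences in the 4 falls was not tested. The 44 log2 fold changes lay between -0.20 and 0.28 with a median of -0.01, beside 0 for all genes, and 20 were positive, beside 49.2% of all genes. Without the same replicate, DESeq2 called 6 of the 44 genes lower (1.56% of all genes), limma-voom 6 (1.62%), edgeR with a GC and length correction 4 (1.15%) and edgeR with DESeq2 size factors 4 (1.36%). With JunD gRNA replicate 1, 2 or 3 left out as well, 3, 2 and 7 of the 44 genes fell (1.45%, 0.926% and 1.99% of all genes). The calls also rested on both other Rosa26 gRNA libraries: 0 of the 44 genes passed when replicate 2 or 3 was left out as well (0.185% and 0.147% of all genes), which leaves 1 Rosa26 gRNA library that is assumed to vary like the JunD gRNA ones. The log2 fold changes in these fits, without replicate 2 and without replicate 3, were -0.17 and -0.16 for Ctsb, -0.21 and -0.15 for Ctsl, -0.26 and -0.13 for Gla, and -0.18 and -0.12 for Lamp2. The 95% interval lay inside ±0.25 for 37 of the 44 genes in this fit.

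**Figure D1:**
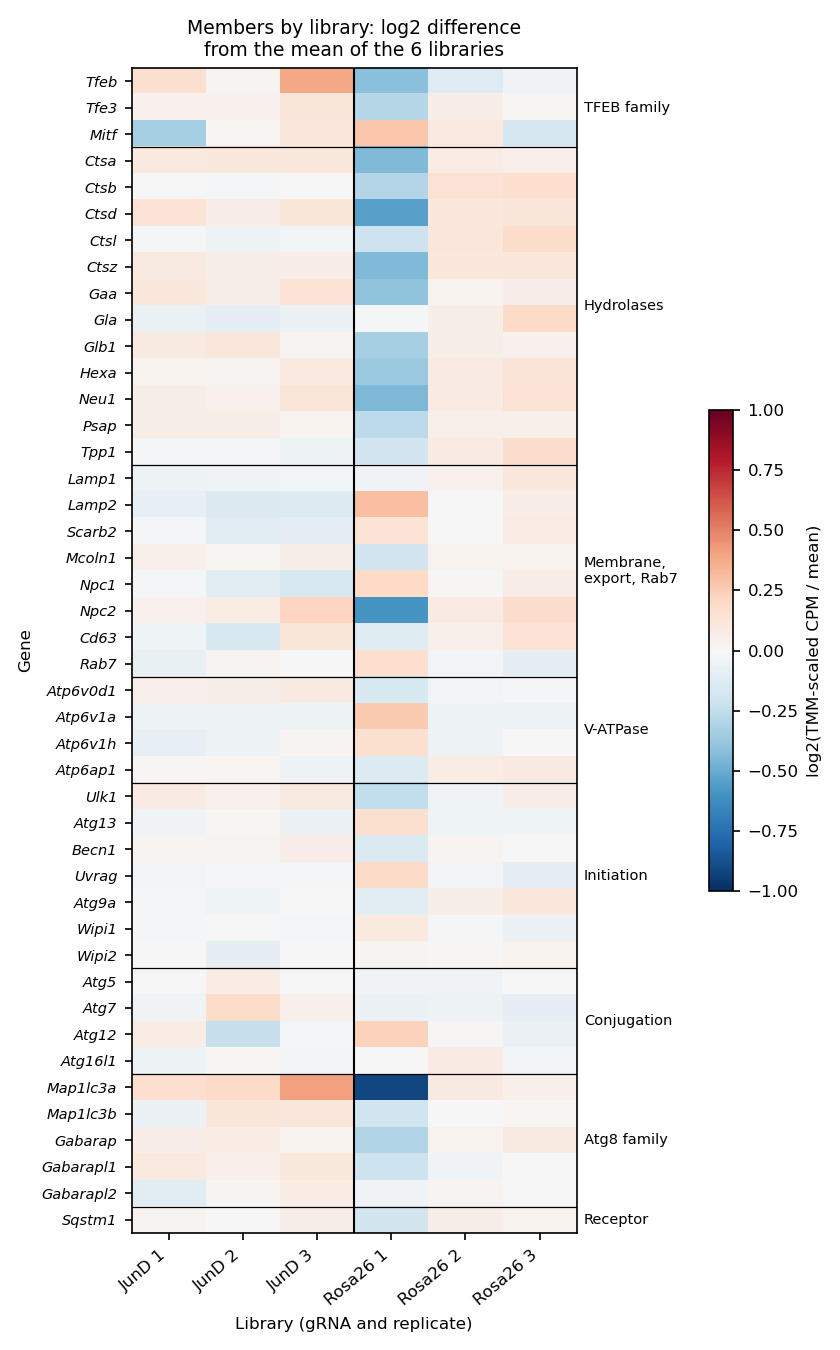
Log2 of each gene's TMM-scaled CPM over its mean across the 6 libraries (colour), with genes in rows by role and libraries in columns. Rosa26 gRNA replicate 1 holds the strongest colours, with 27 genes below and 13 above the range of the JunD gRNA libraries, and the other 5 columns are mostly paler.

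Promoter windows of 5 of the genes are printed for comparison, each 250 bases before and 50 bases after a RefSeq transcript start on GRCm38.p6, written 5′ to 3′ on the gene's strand. Gla, Ctsl and Lamp2 were called lower by edgeR without Rosa26 gRNA replicate 1, as was Ctsb, for which no window was found. Lamp1 holds 4 CACGTG matches and was not called in that edgeR fit. Ctsa stood higher in every JunD gRNA library than in any Rosa26 gRNA library. It has 2 windows: the window shown holds 2 CACGTG matches, and the other, not shown, holds 0. Capitals mark CACGTG, the core of the E-box bound by TFEB-family factors. Capitals would also mark TGANTCA, the AP-1 motif, which none of the 5 windows holds.
Gla (chrX:134600956-134601255, minus strand): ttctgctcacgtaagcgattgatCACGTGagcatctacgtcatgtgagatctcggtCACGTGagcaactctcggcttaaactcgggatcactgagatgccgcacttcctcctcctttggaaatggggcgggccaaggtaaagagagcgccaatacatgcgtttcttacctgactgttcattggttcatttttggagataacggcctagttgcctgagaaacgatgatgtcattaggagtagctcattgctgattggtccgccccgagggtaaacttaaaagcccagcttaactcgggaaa
Ctsl (chr13:64370471-64370770, minus strand): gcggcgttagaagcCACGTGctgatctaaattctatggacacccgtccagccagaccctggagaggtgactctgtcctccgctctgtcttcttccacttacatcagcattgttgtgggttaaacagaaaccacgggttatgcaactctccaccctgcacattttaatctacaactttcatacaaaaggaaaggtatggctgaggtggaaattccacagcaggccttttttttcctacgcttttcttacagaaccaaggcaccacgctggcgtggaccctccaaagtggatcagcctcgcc
Lamp2 (chrX:38456411-38456710, minus strand): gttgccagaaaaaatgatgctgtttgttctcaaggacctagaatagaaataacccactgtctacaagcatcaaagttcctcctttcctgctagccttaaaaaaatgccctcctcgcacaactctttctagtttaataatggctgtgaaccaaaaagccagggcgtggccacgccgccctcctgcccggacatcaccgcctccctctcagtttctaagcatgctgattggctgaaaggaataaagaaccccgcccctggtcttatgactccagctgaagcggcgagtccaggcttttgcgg
Lamp1 (chr8:13158911-13159210, plus strand): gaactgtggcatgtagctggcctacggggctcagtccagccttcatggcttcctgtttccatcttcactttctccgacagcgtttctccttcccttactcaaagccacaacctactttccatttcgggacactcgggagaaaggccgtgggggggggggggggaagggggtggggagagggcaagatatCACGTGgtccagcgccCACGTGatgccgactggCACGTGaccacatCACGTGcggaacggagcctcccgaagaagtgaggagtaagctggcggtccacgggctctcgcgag
Ctsa (chr2:164833523-164833822, plus strand): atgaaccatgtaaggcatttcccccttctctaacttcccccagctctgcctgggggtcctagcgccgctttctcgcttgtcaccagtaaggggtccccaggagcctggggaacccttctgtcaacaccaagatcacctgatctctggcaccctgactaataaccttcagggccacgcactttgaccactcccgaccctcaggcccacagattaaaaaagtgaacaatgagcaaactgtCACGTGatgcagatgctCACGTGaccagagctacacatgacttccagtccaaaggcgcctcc

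Of the 44 genes, 37 matched a RefSeq promoter by symbol, with 45 windows. CACGTG, which reads the same on both strands, was in a window of 12 of these 37 genes (32.4%), against 8.09% of 27025 genes with a window of the same length. The genes were Atg5, Atg7, Atp6v0d1, Atp6v1a, Ctsa, Ctsd, Ctsl, Gaa, Gla, Glb1, Lamp1 and Mcoln1. The longer palindrome TCACGTGA, which contains CACGTG, was in 6 of the 37 (16.2%), against 1.12% of all genes. TGANTCA, searched on both strands, was in 4 of the 37, namely Glb1, Neu1, Psap and Tfe3 (10.8%, against 8.97% of all genes). TGACGTCA, a related AP-1 and CREB motif that reads the same on both strands, was in Atg5 and Mitf (5.41%, against 2.03%). The 12 genes with CACGTG had a median log2 fold change of 0.11 with 6 libraries and 0.02 without Rosa26 gRNA replicate 1, and the 25 genes with a window lacking it had 0.01 and -0.02. In the fit without that library, 2 of the 12 genes (Ctsl and Gla) and 1 of the 25 (Lamp2) were called lower. Ctsb, also called lower there, had no window and is in neither set. Npc1, Atp6v1h, Becn1, Atg12, Atg16l1 and Map1lc3a had none either. A match of letters does not show that a factor binds there. The 44 genes were picked as lysosome and autophagy genes, many of them known for TFEB-family sites. Their higher share of CACGTG could thus follow from that choice alone and is no result of these libraries. The 27025 genes were not limited to genes expressed here.

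Per kilobase of exon, the most abundant transcript was Psap, the precursor of the saposins that help hydrolases reach their lipids, at a mean of 714 TMM-scaled CPM per kb in JunD gRNA libraries and 667 in Rosa26 gRNA libraries. Next in the JunD gRNA libraries came the cathepsin gene Ctsz (457 and 418), the acid alpha-glucosidase gene Gaa (280 and 247), and Sqstm1, the p62 autophagy receptor (259 and 249). At the low end stood Mitf (0.649 and 0.713), Tfeb (1.85 and 1.41) and Atg7 (2.43 and 2.21). The 44 genes together took 1.19%, 1.18% and 1.19% of the counts of the JunD gRNA libraries, and 1.04%, 1.22% and 1.22% of those of the Rosa26 gRNA libraries, the first replicate being the low one. Their counts per library ran between 138 and 98396.

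**Figure D2:**
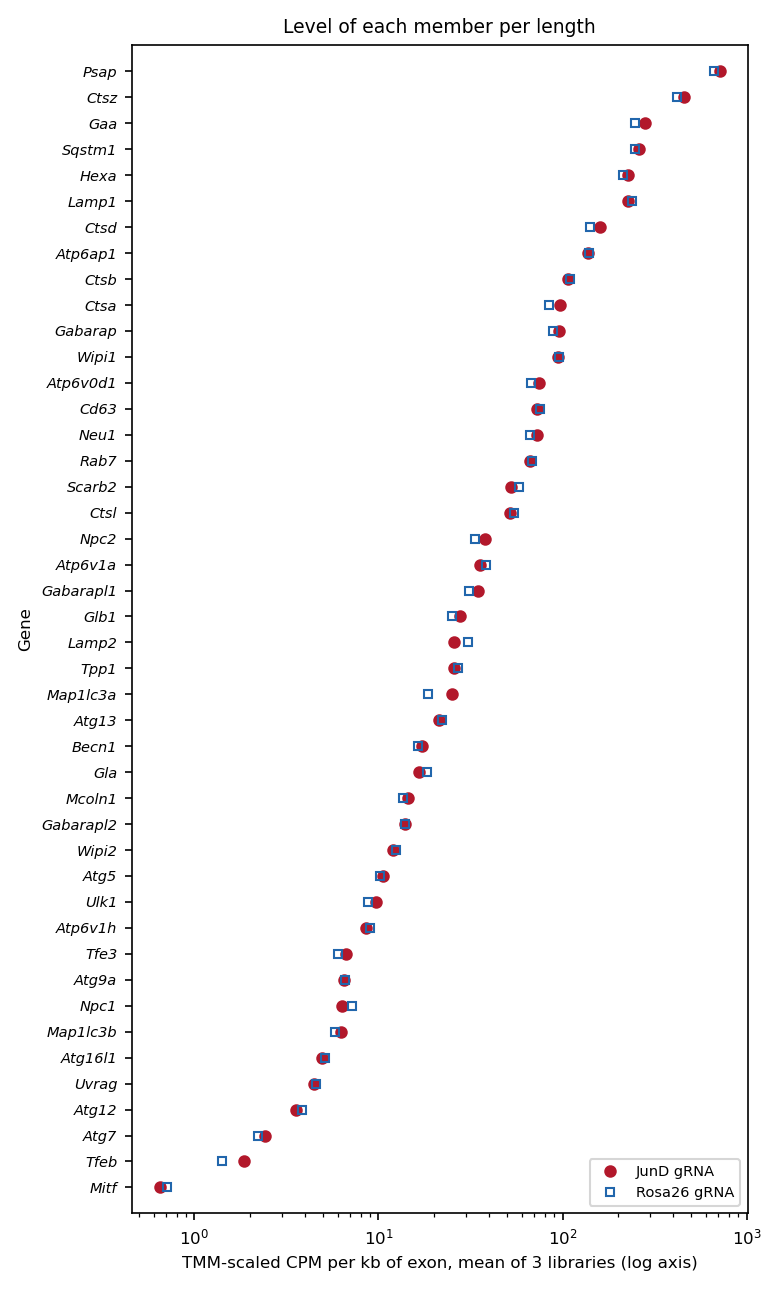
Mean level of each gene per kilobase of exon (TMM-scaled CPM per kb, log axis) in JunD gRNA libraries (filled circles) and Rosa26 gRNA libraries (open squares), n = 3 each. Levels span Psap at 714 and 667 down to Mitf at 0.649 and 0.713, and the symbols of both groups lie close together for nearly all genes.

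The 12 hydrolase genes had a median log2 fold change of 0.11 with 6 libraries, with 8 positive and none past the test, and of -0.04 without Rosa26 gRNA replicate 1, with 8 negative and 3 past the test. Their summed level was 6790, 6710 and 6810 TMM-scaled CPM in the JunD gRNA libraries, against 5130, 6860 and 6940 in the Rosa26 gRNA libraries, where replicate 1 alone was low. The sign of the group's median thus turned on 1 library. In bulk RNA, fewer cells that express a gene and less RNA per cell cannot be told apart.

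Ctsb (chr14:63122462-63145923, plus strand, ENSMUSG00000021939.8) encodes cathepsin B, a cysteine protease. It had 651, 649 and 650 TMM-scaled CPM in the JunD gRNA libraries, against 533, 724 and 735 in the Rosa26 gRNA libraries. The JunD gRNA values were nearly equal and lay above Rosa26 gRNA replicate 1 and below the other 2, so the groups overlapped. The log2 fold change was -0.03 ± 0.11 (SE, edgeR adjusted p = 0.909) with 6 libraries and -0.17 ± 0.03 (SE, edgeR adjusted p = 0.00692, 95% interval -0.24 to -0.10) without that replicate. Ctsb was the 1 gene of the 44 that was called in each of the 5 fits without the replicate, those with DESeq2, limma-voom, a GC and length correction and DESeq2 size factors included. Of its exons, 774 bases (12.8%) overlap exons of Fdft1 on the other strand, and without a stated strand setting reads there cannot be told apart.

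Ctsl (chr13:64359337-64370890, minus strand, ENSMUSG00000021477.9), the gene of the cysteine protease cathepsin L, had 339, 331 and 337 TMM-scaled CPM in the JunD gRNA libraries, against 298, 372 and 390 in the Rosa26 gRNA libraries. The pattern was that of Ctsb, with the first Rosa26 gRNA replicate below and the others above the JunD gRNA values. JunD gRNA over Rosa26 gRNA gave a log2 fold change of -0.07 ± 0.10 (SE, edgeR adjusted p = 0.729) with 6 libraries and -0.18 ± 0.04 (SE, edgeR adjusted p = 0.00837) without that replicate. With a GC and length correction in that fit it was -0.10 and no longer passed (edgeR adjusted p = 0.0944). Its antisense neighbour Gm47123, which overlaps 26.8% of its exon bases, had 0 counts in all 6 libraries.

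Gla (chrX:134588149-134601125, minus strand, ENSMUSG00000031266.6) encodes alpha-galactosidase A, the enzyme lacking in Fabry disease. It had 54.2, 53.2 and 54.5 TMM-scaled CPM in the JunD gRNA libraries, against 56.3, 59.2 and 64.8 in the Rosa26 gRNA libraries. All JunD gRNA values lay below all Rosa26 gRNA values, with little room to Rosa26 gRNA replicate 1. In the fits, its log2 fold change was -0.16 ± 0.08 (SE, edgeR adjusted p = 0.429) with 6 libraries and -0.20 ± 0.06 (SE, edgeR adjusted p = 0.0469) without that replicate, and -0.16 with a GC and length correction in the second fit (edgeR adjusted p = 0.0765).

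Gaa and Ctsa leaned the other way with 6 libraries and passed no test. Gaa (chr11:119267887-119285454, plus strand, ENSMUSG00000025579.14), whose enzyme digests lysosomal glycogen, had 1340, 1300 and 1370 TMM-scaled CPM in the JunD gRNA libraries, against 947, 1280 and 1310 in the Rosa26 gRNA libraries. Its low value was Rosa26 gRNA replicate 1, and the other values of both groups overlapped. The log2 fold change was 0.18 ± 0.11 (SE, edgeR adjusted p = 0.474) with 6 libraries and 0.05 ± 0.03 (SE, edgeR adjusted p = 0.529) without that replicate. Ctsa (chr2:164832873-164841032, plus strand, ENSMUSG00000017760.15) encodes cathepsin A, which protects the sialidase and beta-galactosidase in a complex. It had 452, 456 and 457 TMM-scaled CPM in the JunD gRNA libraries, against 311, 444 and 439 in the Rosa26 gRNA libraries. The groups did not overlap, but apart from Rosa26 gRNA replicate 1 the values were close, and the log2 fold change was 0.19 ± 0.12 (SE, edgeR adjusted p = 0.488) with 6 libraries and 0.04 ± 0.04 (SE, edgeR adjusted p = 0.653) without it.

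The other 7 hydrolase genes, Ctsd, Ctsz, Glb1, Hexa, Neu1, Psap and Tpp1, had log2 fold changes between -0.06 and 0.18 with 6 libraries and between -0.16 and 0.03 without Rosa26 gRNA replicate 1. The tripeptidyl peptidase gene Tpp1 was nearest to a call. It had 135, 135 and 131 TMM-scaled CPM in the JunD gRNA libraries, against 119, 144 and 153 in the Rosa26 gRNA libraries, and a log2 fold change of -0.06 ± 0.09 (SE, edgeR adjusted p = 0.772) with 6 libraries and -0.16 ± 0.04 (SE, edgeR adjusted p = 0.0508) without that replicate. DESeq2 and limma-voom called it in that fit (adjusted p = 0.0221 and 0.0406). The aspartic protease gene Ctsd had 383, 364 and 378 TMM-scaled CPM, against 239, 375 and 378, and apart from the low first Rosa26 gRNA replicate its values did not separate (log2 fold change 0.18 ± 0.15 with 6 libraries and -0.01 ± 0.04 without that one). Per kilobase, the lowest of the 12 was Gla, at 16.5 TMM-scaled CPM per kb in JunD gRNA libraries and 18.4 in Rosa26 gRNA libraries.

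**Figure D3:**
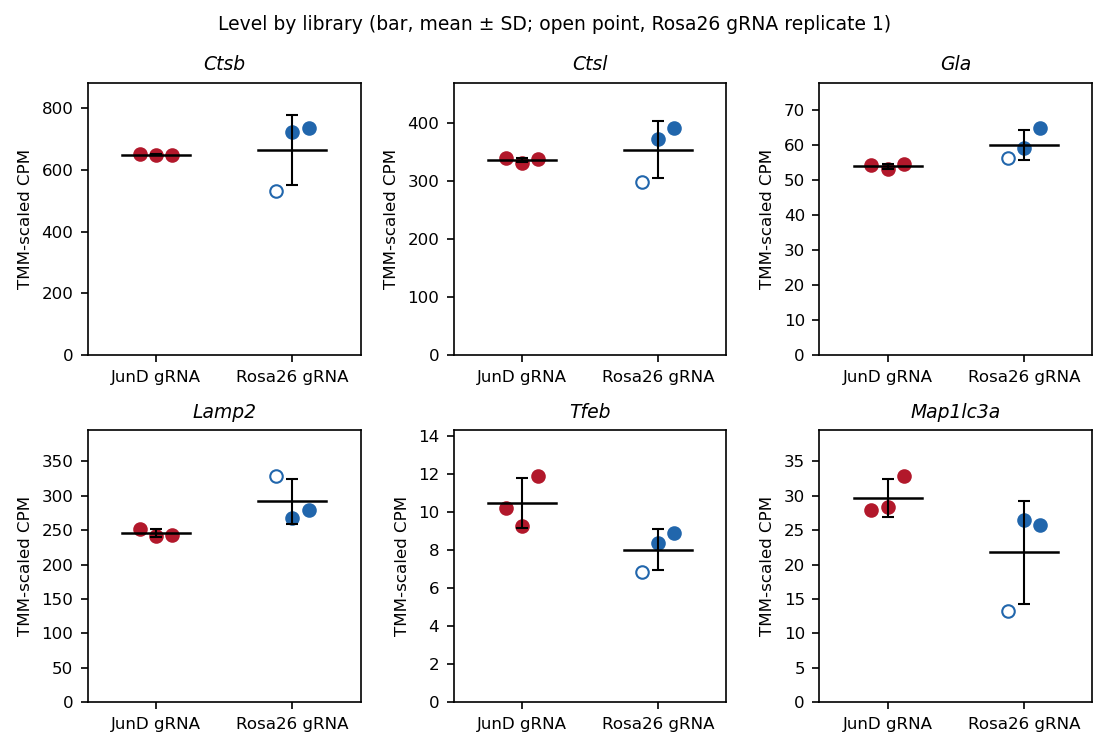
TMM-scaled CPM of Ctsb, Ctsl, Gla, Lamp2, Tfeb and Map1lc3a in each library, JunD gRNA left and Rosa26 gRNA right, with mean ± SD (n = 3 each) and Rosa26 gRNA replicate 1 as an open point. For Ctsb and Ctsl the open point lies below and the other Rosa26 gRNA points above the JunD gRNA points, and for Lamp2 it is the highest point at 329.

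Of the 8 genes for lysosomal membrane proteins, the calcium channel, cholesterol export and Rab7, 6 had negative log2 fold changes with all 6 libraries (median -0.07) and 6 without Rosa26 gRNA replicate 1 (median -0.11), 5 of them the same genes, and 1 passed the test in the second fit. Lamp2 (chrX:38401357-38456454, minus strand, ENSMUSG00000016534.15) encodes a heavily glycosylated lysosomal membrane protein, with a splice form that takes in substrates of chaperone-mediated autophagy. It had 252, 242 and 243 TMM-scaled CPM in the JunD gRNA libraries, against 329, 267 and 279 in the Rosa26 gRNA libraries. All JunD gRNA values lay below all Rosa26 gRNA values, and Rosa26 gRNA replicate 1 was the highest. JunD gRNA over Rosa26 gRNA gave a log2 fold change of -0.25 ± 0.09 (SE, edgeR adjusted p = 0.417) with 6 libraries and -0.15 ± 0.04 (SE, edgeR adjusted p = 0.0376) without that replicate. Lamp2 had one of the lowest GC contents of the 44 genes (38.7%), and with a GC and length correction the differences were -0.03 (edgeR adjusted p = 0.846) and -0.05 (edgeR adjusted p = 0.504).

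Scarb2 and Npc1 also had every JunD gRNA library below every Rosa26 gRNA library, without a call. Scarb2 (chr5:92441314-92506833, minus strand, ENSMUSG00000029426.8) encodes LIMP-2, which carries glucocerebrosidase to the lysosome. It had 342, 321 and 326 TMM-scaled CPM in the JunD gRNA libraries, against 381, 346 and 365 in the Rosa26 gRNA libraries. The highest JunD gRNA value was close to the lowest Rosa26 gRNA value, and the log2 fold change was -0.14 ± 0.07 (SE, edgeR adjusted p = 0.419) with 6 libraries and -0.11 ± 0.04 (SE, edgeR adjusted p = 0.137) without Rosa26 gRNA replicate 1. Npc1 (chr18:12189692-12236400, minus strand, ENSMUSG00000024413.13), the membrane protein that exports cholesterol and is mutated in Niemann-Pick disease type C, had 75.7, 70.9 and 68.2 TMM-scaled CPM in the JunD gRNA libraries, against 87.3, 76.8 and 80.0 in the Rosa26 gRNA libraries. The groups did not overlap, but the nearest values were close. In the fits, its log2 fold change was -0.18 ± 0.08 (SE, edgeR adjusted p = 0.417) with 6 libraries and -0.13 ± 0.05 (SE, edgeR adjusted p = 0.206) without that replicate. With a GC and length correction, Scarb2 had -0.06 in both fits (edgeR adjusted p = 0.7 and 0.397). Npc1 then had -0.06 with 6 libraries and -0.07 without that replicate (edgeR adjusted p = 0.688 and 0.541).

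Per kilobase, Lamp1, the other main lysosomal membrane glycoprotein, was the most abundant of these 8 (226 TMM-scaled CPM per kb in JunD gRNA libraries and 239 in Rosa26 gRNA libraries), and Npc1 the lowest (6.33 and 7.19). Lamp1 had 599, 604 and 609 TMM-scaled CPM in the JunD gRNA libraries, against 607, 638 and 668 in the Rosa26 gRNA libraries. Only Rosa26 gRNA replicate 1 fell within the JunD gRNA range, and the log2 fold change was -0.08 ± 0.06 (SE, edgeR adjusted p = 0.567) with 6 libraries and -0.11 ± 0.04 (SE, edgeR adjusted p = 0.0799) without it. DESeq2, limma-voom and the GC and length correction each called Lamp1 lower in that fit, with adjusted p of 0.0404, 0.0477 and 0.0435. The cholesterol-binding protein gene Npc2, the channel gene Mcoln1 and the small GTPase gene Rab7 had log2 fold changes between -0.04 and 0.18 with 6 libraries and between -0.02 and 0.04 in it.

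Cd63, a tetraspanin gene of lysosomes and secretory granules, had 263, 245 and 295 TMM-scaled CPM in the JunD gRNA libraries, against 250, 281 and 301 in the Rosa26 gRNA libraries. The groups overlapped, and the log2 fold change was -0.05 ± 0.09 with 6 libraries and -0.12 ± 0.05 (SE, edgeR adjusted p = 0.263) without Rosa26 gRNA replicate 1. The count of Cd63 is uncertain because the annotated copy Cd63-ps matches its transcript over 812 bases at 98.522% identity. Cd63-ps had 418, 399 and 381 TMM-scaled CPM in the JunD gRNA libraries, against 377, 492 and 517 in the Rosa26 gRNA libraries. As with Ctsb, the JunD gRNA values lay between Rosa26 gRNA replicate 1 and the other Rosa26 gRNA replicates. The copy fell without that replicate (log2 fold change -0.34, edgeR adjusted p = 1.63e-05) but not with 6 libraries (-0.21, edgeR adjusted p = 0.434). Counts of Rab7 and of the Atg8-family gene Gabarapl2 are likewise uncertain, since copies at 98.392% (Rab7-ps1, 622 bases) and 99.427% identity (Gm3724, 349 bases) were counted beside them.

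The 4 V-ATPase genes passed no test, with log2 fold changes between -0.11 and 0.13 with 6 libraries and between -0.09 and 0.09 without Rosa26 gRNA replicate 1. Atp6v0d1 (chr8:105524465-105566047, minus strand, ENSMUSG00000013160.7) encodes subunit d of the membrane sector. It had 131, 132 and 135 TMM-scaled CPM in the JunD gRNA libraries, against 114, 124 and 125 in the Rosa26 gRNA libraries. All JunD gRNA values lay above all Rosa26 gRNA values, and the log2 fold change was 0.13 ± 0.07 (SE, edgeR adjusted p = 0.431) with 6 libraries and 0.09 ± 0.04 (SE, edgeR adjusted p = 0.32) without that replicate. Atp6v1a, the catalytic subunit gene, had 215, 216 and 215 TMM-scaled CPM in the JunD gRNA libraries, against 268, 215 and 215 in the Rosa26 gRNA libraries. Rosa26 gRNA replicate 1 alone was high and the other 5 libraries were nearly equal, and the log2 fold change was -0.11 ± 0.09 (SE) over 6 libraries, against 0.00 ± 0.04 (SE) without it. Per kilobase, the accessory subunit gene Atp6ap1 was the highest (138 TMM-scaled CPM per kb in JunD gRNA libraries and 140 in Rosa26 gRNA libraries) and Atp6v1h the lowest (8.57 and 9.0).

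The TFEB family passed no test in either fit. Tfeb (chr17:47737030-47792419, plus strand, ENSMUSG00000023990.18), whose product enters the nucleus when mTORC1 is inactive, had 10.2, 9.28 and 11.9 TMM-scaled CPM in the JunD gRNA libraries, against 6.82, 8.34 and 8.9 in the Rosa26 gRNA libraries. All JunD gRNA values lay above all Rosa26 gRNA values. The log2 fold change was 0.38 ± 0.14 (SE, edgeR adjusted p = 0.417, 95% interval 0.07 to 0.70) with 6 libraries and 0.28 ± 0.11 (SE, edgeR adjusted p = 0.199, 95% interval 0.05 to 0.52) without Rosa26 gRNA replicate 1. With a GC and length correction it was 0.20 (edgeR adjusted p = 0.506) and 0.18 (edgeR adjusted p = 0.46). Tfeb had the highest GC content of the 44 genes, 63.2%.

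Tfe3 (chrX:7762560-7775202, plus strand, ENSMUSG00000000134.17), the more abundant relative of Tfeb here at 6.63 TMM-scaled CPM per kb in JunD gRNA libraries and 6.05 in Rosa26 gRNA libraries, had 60.3, 60.3 and 63.7 TMM-scaled CPM in the JunD gRNA libraries, against 47.9, 61.4 and 58.9 in the Rosa26 gRNA libraries. Rosa26 gRNA replicate 1 was low and the other values overlapped, with log2 fold changes of 0.13 ± 0.10 (SE, edgeR adjusted p = 0.535) and, without it, 0.03 ± 0.05 (SE, edgeR adjusted p = 0.852). Mitf (chr6:97807052-98021349, plus strand, ENSMUSG00000035158.15), the family member known for melanocytes, had 3.32, 4.24 and 4.5 TMM-scaled CPM in the JunD gRNA libraries, against 5.06, 4.47 and 3.72 in the Rosa26 gRNA libraries. The groups overlapped, and the log2 fold change was -0.13 ± 0.17 (SE, edgeR adjusted p = 0.722) with 6 libraries and -0.03 ± 0.17 (SE, edgeR adjusted p = 0.966) without that replicate.

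The 7 genes of autophagy initiation and nucleation had the narrowest range of log2 fold changes of the role groups with more than 1 gene in both fits. Their log2 fold changes lay between -0.05 and 0.14 with 6 libraries and between -0.10 and 0.05 without Rosa26 gRNA replicate 1, with no gene past an unadjusted p of 0.05 in either fit. Ulk1, the kinase that starts autophagy, had 63.1, 61.3 and 63.4 TMM-scaled CPM in the JunD gRNA libraries, against 50.1, 58.2 and 62.4 in the Rosa26 gRNA libraries. Its partner gene Atg13 had 91.8, 95.3 and 90.6, against 105, 91.3 and 91.4. The groups overlapped for both. Becn1, a subunit of the lipid kinase complex, had 121, 121 and 124, against 107, 121 and 118, with the groups just apart, and Cntd1 overlaps 43.9% of its exon bases on the other strand. Uvrag, another subunit gene, and Atg9a, the gene of the autophagic lipid scramblase, had log2 fold changes of -0.05 and -0.04 with 6 libraries, and of 0.04 and -0.10 without that replicate. Wipi1 and Wipi2, whose products read the lipid that the kinase makes, had -0.02 and -0.05 with 6 libraries, and 0.03 and -0.06 without it. Per kilobase, Wipi1 was the highest of the group (93.9 TMM-scaled CPM per kb in JunD gRNA libraries and 95.2 in Rosa26 gRNA libraries) and Uvrag the lowest (4.45 and 4.59).

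The 4 conjugation genes, whose products attach Atg8 proteins to lipid, passed no test in either fit. The E1-like enzyme gene Atg7 had 15.7, 18.3 and 16.7 TMM-scaled CPM in the JunD gRNA libraries, against 15.5, 15.6 and 15.1 in the Rosa26 gRNA libraries, and a log2 fold change of 0.13 in both fits. Its groups were apart by a margin smaller than the spread among the JunD gRNA libraries. Atg5, Atg12 and Atg16l1, which form the E3-like complex, had log2 fold changes between -0.12 and 0.05 with 6 libraries and between -0.05 and 0.04 without Rosa26 gRNA replicate 1. Per kilobase, Atg5 was the highest of the 4 (10.6 TMM-scaled CPM per kb in JunD gRNA libraries and 10.2 in Rosa26 gRNA libraries) and Atg7 the lowest.

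All 5 Atg8-family genes had positive log2 fold changes with 6 libraries (median 0.11), and 3 of 5 without Rosa26 gRNA replicate 1 (median 0.05), with none past the test. Map1lc3a (chr2:155276297-155278073, plus strand, ENSMUSG00000027602.9), one of the LC3 genes, had 27.9, 28.3 and 32.9 TMM-scaled CPM in the JunD gRNA libraries, against 13.2, 26.4 and 25.7 in the Rosa26 gRNA libraries. The groups did not overlap, and Rosa26 gRNA replicate 1 lay 1.09 below the mean of the other 5 libraries on the log2 scale. JunD gRNA over Rosa26 gRNA gave a log2 fold change of 0.45 ± 0.22 (SE, edgeR adjusted p = 0.429) with 6 libraries and 0.19 ± 0.08 (SE, edgeR adjusted p = 0.199) without it. Its GC content was 63.1%, and with a GC and length correction the values were 0.26 (edgeR adjusted p = 0.503) and 0.08 (edgeR adjusted p = 0.638). Gabarapl1 (chr6:129533160-129542346, plus strand, ENSMUSG00000030161.8) had 71.1, 68.5 and 71.2 TMM-scaled CPM in the JunD gRNA libraries, against 57.3, 64.6 and 66.0 in the Rosa26 gRNA libraries. The groups again did not overlap, with log2 fold changes of 0.17 ± 0.08 (SE, edgeR adjusted p = 0.419) and, without that replicate, 0.11 ± 0.05 (SE, edgeR adjusted p = 0.315). Corrected for GC and length, they were 0.09 (edgeR adjusted p = 0.532) and 0.10 (edgeR adjusted p = 0.299). On the other strand, 1700101I11Rik overlaps 28.3% of its exon bases.

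Map1lc3b, the LC3 gene most used to follow autophagy, had 43.4, 49 and 48.7 TMM-scaled CPM in the JunD gRNA libraries, against 39.3, 45.2 and 45.8 in the Rosa26 gRNA libraries. Its groups overlapped, and the log2 fold change was 0.11 ± 0.09 (SE) over 6 libraries, against 0.05 ± 0.06 (SE) without Rosa26 gRNA replicate 1. Gabarap and Gabarapl2 had 0.11 and 0.01 with 6 libraries, and -0.01 each without that replicate. Per kilobase, Gabarap was the most abundant of the 5 (95.4 TMM-scaled CPM per kb in JunD gRNA libraries and 88.4 in Rosa26 gRNA libraries) and Map1lc3b the lowest (6.25 and 5.77). The cargo receptor gene Sqstm1 had 869, 852 and 884 TMM-scaled CPM in the JunD gRNA libraries, against 747, 888 and 872 in the Rosa26 gRNA libraries. The groups overlapped, and its log2 fold change was 0.06 ± 0.08 (SE, edgeR adjusted p = 0.739) with 6 libraries and -0.02 ± 0.03 (SE, edgeR adjusted p = 0.852) without that replicate.

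**Figure D4:**
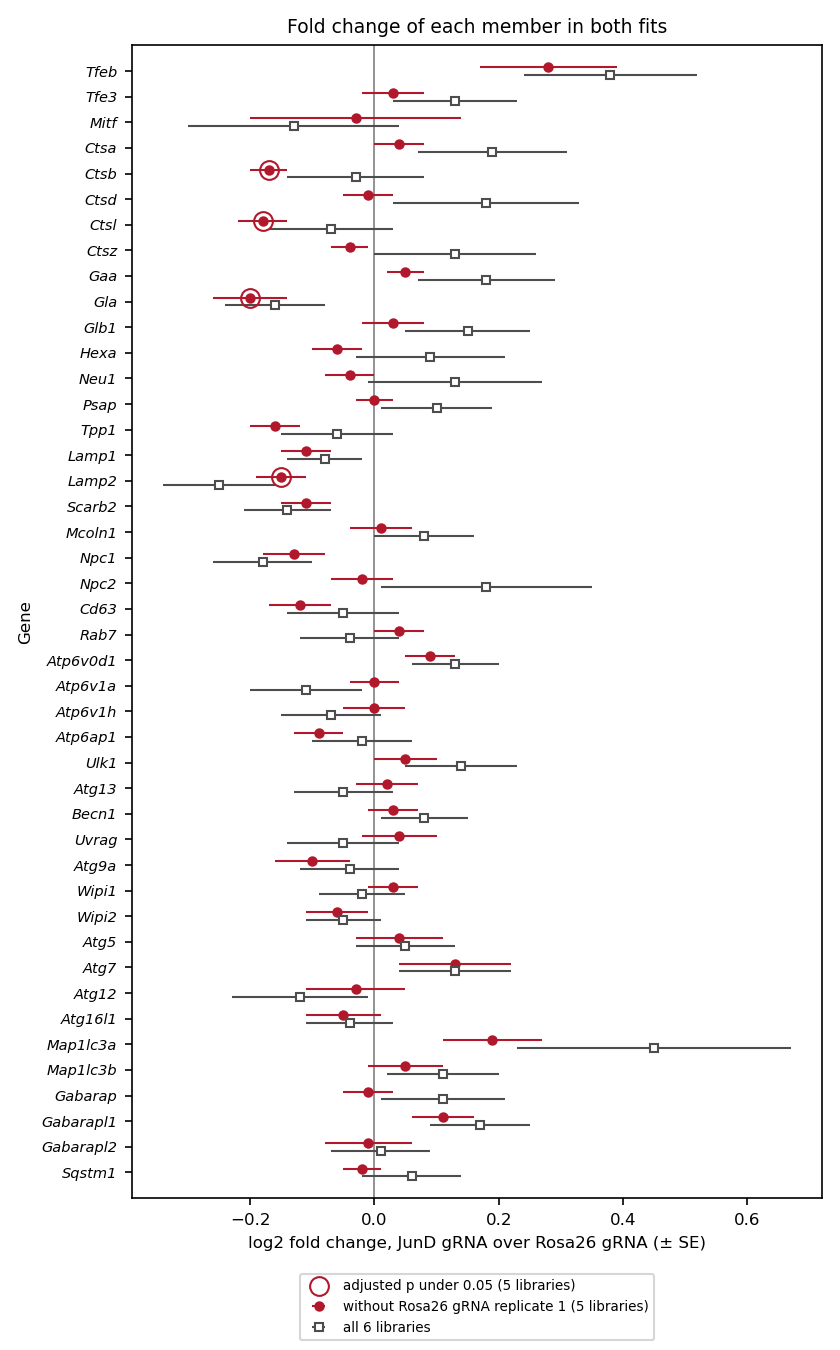
Log2 fold change (JunD gRNA over Rosa26 gRNA, ± SE) of each gene without Rosa26 gRNA replicate 1 (filled circles) and with all 6 libraries (open squares), with rings on the 4 genes past an adjusted p of 0.05. The filled circles lie between -0.20 and 0.28 and the open squares between -0.25 and 0.45.

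The place of Rosa26 gRNA replicate 1 among the 44 genes went along with GC content, measured on each gene's longest annotated transcript (37.6% to 63.2%, median 51.4%). Spearman's rank correlation between GC content and the deviation of that library from the mean of the other 5 was -0.643 over the 44 genes and -0.506 over all genes tested. GC-rich genes such as Map1lc3a, Ctsd and Tfeb were low in it and GC-poor genes such as Lamp2 and Atp6v1a high. The rank correlation between GC content and the log2 fold change over the 44 genes was 0.688 with 6 libraries and 0.354 without that replicate. These are descriptions across genes that share the same libraries. All 4 genes called lower without the replicate had a GC content below the median of the 44, namely 49.2% for Ctsb, 46.3% for Gla, 44.3% for Ctsl and 38.7% for Lamp2. Their deviations in the replicate were -0.35, -0.02, -0.25 and 0.36, so Ctsb and Ctsl were low in it. With a GC and length correction in the fit without the replicate, Ctsb (log2 fold change -0.14, edgeR adjusted p = 0.00484), Tpp1 (-0.14, 0.0437), Lamp1 (-0.11, 0.0435) and Cd63 (-0.18, 0.0114) fell, while Ctsl, Gla and Lamp2 did not pass. Of the 4 that fell there, Cd63 (58.1%) and Lamp1 (51.6%) lay above the median GC content, and Ctsb and Tpp1 (48.7%) below it. The part of GC content in the falls was not tested. In all, 13 of the 44 genes had log2 fold changes of opposite sign with and without the replicate.

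**Figure D5:**
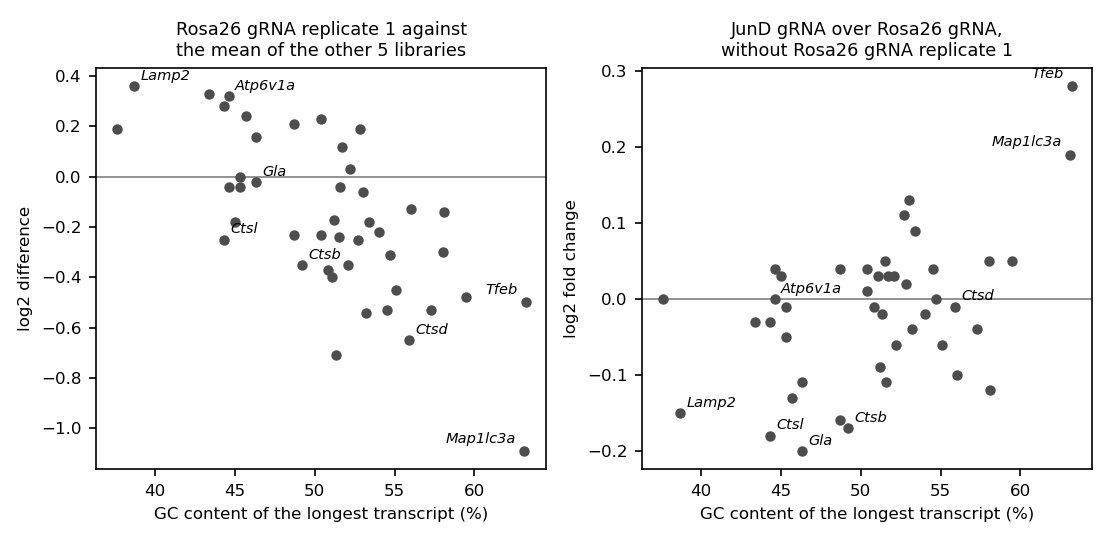
GC content of each gene's longest transcript (%) against the log2 difference of Rosa26 gRNA replicate 1 from the mean of the other 5 libraries (left) and against the log2 fold change, JunD gRNA over Rosa26 gRNA, without that replicate (right), 1 point per gene. Points run down to the right in the left panel (rank correlation -0.643) and loosely up to the right in the right panel (rank correlation 0.354).

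Beyond the 44 genes, 171 further lysosome and autophagy genes were listed in 7 groups, of which 170 matched a symbol and 161 were tested. With 6 libraries 0 passed in either direction by edgeR, 20 had an unadjusted p under 0.05 (6 higher and 14 lower), a share near the 11.9% of all genes, and the median log2 fold change was 0.01. Without Rosa26 gRNA replicate 1, 6 fell and none rose, and 59 of the 161 values were positive and 102 negative with a median of -0.03, beside 1.4% of all genes called lower, 1.45% called higher and 49.2% positive in that fit. All 6 came from the lysosomal lists: 4 of 39 other hydrolase and sorting genes, of which 33 were negative, and 2 of 21 other membrane and transport genes, of which 16 were negative. With all 6 libraries, 20 of these 39 genes and 11 of these 21 were negative, as were 74 of the 161. The lean to negative values thus rested on leaving out Rosa26 gRNA replicate 1. Of 16 other V-ATPase subunit genes, 29 mTORC1 and nutrient-sensing genes, 24 initiation and lipidation genes, 18 autophagy receptor genes and 14 fusion and tethering genes, none passed in either fit. With a GC and length correction without that replicate, the V-ATPase gene Atp6v1c1, the mTORC1 genes Rheb, Lamtor1 and Sesn3 and the lipidation gene Atg3 rose, with log2 fold changes of 0.15, 0.21, 0.24, 0.24 and 0.22 (edgeR adjusted p = 0.0357, 0.0169, 0.024, 0.000903 and 0.0214). In that corrected fit 5 of the 161 genes were called higher and 4 lower, beside 2% and 1.15% of all genes.

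Slc11a2 (chr15:100387898-100425072, minus strand, ENSMUSG00000023030.16), the iron transporter DMT1, had 58.1, 59 and 58.3 TMM-scaled CPM in the JunD gRNA libraries, against 72.5, 67.9 and 72.3 in the Rosa26 gRNA libraries. Igf2r (chr17:12682406-12769664, minus strand, ENSMUSG00000023830.13), the receptor that sorts mannose 6-phosphate-tagged hydrolases to lysosomes, had 410, 390 and 370, against 480, 443 and 456. Laptm4a (chr12:8921664-8938742, plus strand, ENSMUSG00000020585.4), which encodes a lysosomal transmembrane protein, had 297, 287 and 296, against 331, 324 and 338. For these 3 genes every JunD gRNA value lay below every Rosa26 gRNA value, Rosa26 gRNA replicate 1 included. Their log2 fold changes were -0.28, -0.24 and -0.17 with 6 libraries (edgeR adjusted p = 0.417 each) and -0.26, -0.21 and -0.18 without that replicate (edgeR adjusted p = 0.00668, 0.00602 and 0.0145). They also passed with a GC and length correction in the second fit (edgeR adjusted p = 0.00355, 0.00407 and 0.00724).

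Ids and Scpep1 are hydrolase genes. Ids (chrX:70343069-70365084, minus strand, ENSMUSG00000035847.15), for iduronate sulfatase, had 273, 273 and 264 TMM-scaled CPM in the JunD gRNA libraries, against 368, 301 and 307 in the Rosa26 gRNA libraries. Scpep1 (chr11:88924020-88955465, minus strand, ENSMUSG00000000278.10), for a serine carboxypeptidase, had 275, 274 and 274, against 260, 302 and 314. The groups were apart for Ids and overlapped through Rosa26 gRNA replicate 1 for Scpep1. Neither passed with 6 libraries, where no gene of the other hydrolase and sorting list had an edgeR adjusted p below 0.417. Without that replicate the log2 fold change was -0.17 for each (edgeR adjusted p = 0.0154 for Ids and 0.0187 for Scpep1). With the GC and length correction Scpep1 passed and Ids did not (edgeR adjusted p = 0.00796 and 0.233).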

How the data were processed

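Total RNA of 6 Min6 cultures was made into Illumina libraries, per the labels' protocols. Each library has 1 deposited table of raw counts by gene, made by the authors with TopHat2 and featureCounts on mm10, per the submitters' processing notes. Their versions, the annotation release, the strand setting and how multi-mapping reads were handled: not given in the sources used here. Groups and replicate numbers came from the titles and the gRNA label. No pair of replicates agreed within sampling noise (a chi-square comparison of counts gave at least 3.27 per degree of freedom).

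The 44 genes and all other lists were chosen with earlier results of these data known. Of 53379 identifiers, 53274 matched a symbol, and coordinates, exon lengths and GC content came from GENCODE on GRCm38, the assembly that mm10 names. JunD gRNA was compared with Rosa26 gRNA in edgeR 4.0.16 (R 4.3.3) with TMM factors, filterByExpr, the group as the sole term, a quasi-likelihood fit over all genes, two-sided p-values and adjustment by Benjamini-Hochberg over all genes tested, called at 0.05. SEs are the absolute log2 fold change over the square root of F and are approximate. The same fit was run without Rosa26 gRNA replicate 1, which was known from earlier results of these data to stand apart. The adjusted p-values of that fit do not account for this choice. Alternatives used DESeq2 1.42.0, limma 3.58.1 (voom), other scalings and filters, a correction for GC content and length by natural splines with 5 degrees of freedom, and each library left out. The scripts were tested on simulated data. Genes written out in full were the 3 TFEB-family genes, those past 0.05 in either fit and the 10 with the smallest p over 6 libraries, and the Atg8 family was named as a set. Tpp1, Ctsd, Lamp1, Cd63, Atp6v1a, Ulk1, Atg13, Becn1, Atg7 and Sqstm1 were added after their values were seen. Of the further lists, 1 gene had no matching symbol and was not analysed here, and 1 gene counted in a list is not reported here by name. Near copies were sought among transcripts by alignment of at least 300 bases at 97% identity or more.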

Additional observations from a re-analysis of the deposited data

How the results depend on the processing

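The count of the 44 genes called higher was 0 under all 26 alternatives. The count called lower was 0 under every alternative that kept Rosa26 gRNA replicate 1. Without it, it was 4 by edgeR, 6 by DESeq2, 6 by limma-voom, 4 with a GC and length correction and 4 with DESeq2 size factors. Leaving out that replicate was itself chosen with earlier results of these data known. Chosen after seeing the data, leaving out a further library gave 3, 2 and 7 without JunD gRNA replicates 1, 2 and 3, and 0 without either other Rosa26 gRNA replicate, which leaves 1 sample assumed to vary like the other group. The median log2 fold change of the 44 genes stayed between -0.02 and 0.06.

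Over all genes, higher and lower calls were 20 and 47 by DESeq2, 131 and 162 by limma-voom with sample weights, 33 and 53 without a count filter, 11 and 14 with the GC and length correction, and 266 and 257 without Rosa26 gRNA replicate 1. Without that replicate they were 340 and 286 by DESeq2, 292 and 296 by limma-voom, 366 and 210 with the correction, and 280 and 249 with DESeq2 size factors. With a further library out they were 378 and 261, 281 and 167, 316 and 356 (JunD gRNA replicates 1 to 3), 16 and 35, and 18 and 28. Of the further lysosome and autophagy genes, 4 were lower by limma-voom with sample weights. Without Rosa26 gRNA replicate 1, 6 were lower by edgeR, 9 (and 1 higher) by DESeq2, 8 by limma-voom, 4 (and 5 higher) with the correction, 6 with DESeq2 size factors, and 7, 3 and 9 (and 4, 1 and 2 higher) with a JunD gRNA library also out.

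Replicate numbers did not pair the libraries: deviations of same-numbered libraries correlated at 0.0555, -0.0393 and 0.0742, and not every library correlated best with its own number. With a replicate block, 0 of the 44 genes and 0 of all genes were called, and the median was 0.02.

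Single-gene values were compared for 14 of the 44 genes, each under 26 alternatives. These were the TFEB family, the genes called in either fit and those with the smallest p. Of their 364 values, 328 kept direction and call, 26 kept direction and were newly called, and 10 reversed, none of them past the test. The shares do not describe the genes left out. Over all 44 genes, 13 had opposite signs with and without Rosa26 gRNA replicate 1. Values without 1 or 2 libraries ran between -0.24 and 0.12 for Mitf, -0.17 and 0.05 for Ctsb, and -0.21 and 0.00 for Ctsl. Mitf turned to 0.03 with the correction, and without Rosa26 gRNA replicate 1 to 0.06 with it, 0.10 without JunD gRNA replicate 1 and 0.12 without Rosa26 gRNA replicate 2. Ctsb turned to 0.01 with the correction and to 0.04 and 0.05 without Rosa26 gRNA replicates 2 and 3. Ctsl turned to 0.07 with the correction and 0.00 without Rosa26 gRNA replicate 3, and Gaa to -0.02 with the correction without Rosa26 gRNA replicate 1. The cause was not tested. Each of the 44 genes had 138 counts or more in every library, and 3 libraries a group limit the precision.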
